A study of Arabidopsis thaliana with 6 samples.

Results

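The 9 genes described here encode the machinery by which Arabidopsis cells deliver immune cargo to the cell surface and lay down callose: the plasma membrane syntaxins PEN1 (SYP121), SYP122 and SYP132, their partner SNAP33, the vesicle SNAREs VAMP721 and VAMP722, the exocyst subunits EXO70B1 and EXO70B2, and the callose synthase PMR4 (GSL5). They were taken by locus code from tables of 28259 loci, and all 9 were found and passed the filter on low counts. Transcripts were measured by RNA-seq in whole seedlings of the Columbia ecotype (Col-0), 10 days old, grown with 10 h of light and 14 h of dark and kept in water overnight. The groups were 3 libraries from seedlings given the solvent dimethyl sulfoxide (DMSO) and 3 from seedlings given the bacterial medium-chain fatty acid 3-OH-C10:0, both taken after 8 h. For the dose of 3-OH-C10:0, one label gives 5 microM and another 5 mM. Whether the replicates were grown separately is not stated, so the p-values reflect the spread among the libraries, which may be technical.

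SNARE proteins fuse vesicles with their target membrane. A syntaxin and a SNAP25-like protein on the plasma membrane zip together with a VAMP on the vesicle, and SEC1/MUNC18 proteins assist the syntaxin. PEN1, SNAP33 and VAMP721 or VAMP722 form such a complex, which is known for stopping powdery mildew fungi at the cell wall and for gathering at the papillae that plants build under fungal entry sites. The exocyst is a complex that tethers secretory vesicles before fusion, and its EXO70 subunit, which binds membrane lipids, exists in many versions in plants. Callose is a glucan polymer, and PMR4 makes most of the callose found in papillae and at wounds.

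The secretory set rose strongly but not evenly after 3-OH-C10:0. Of the 9 genes, 8 rose and SYP132 did not pass, at an adjusted p under 0.05 in the quasi-likelihood test of edgeR, with Benjamini-Hochberg adjustment across the 19768 genes tested. All 9 fitted changes were positive, so none fell at an unadjusted p under 0.05 or in any other tool run. By the same rule 35.6% of all tested genes rose and 35.8% fell, so a rise on its own was common in these libraries. At least 4-fold increases were found in 5 of the 9 genes, against 7.22% of all tested genes, and at least 2-fold increases in 6 of the 9, against 15.7%. In 8 of the 9 all treated libraries lay above all DMSO libraries, as they did for 37.7% of tested genes. The median log2 fold change was 2.40 over the 9 genes and -0.04 over all tested genes. The 9 genes were chosen with earlier results of these data known, so these comparisons only describe the set. Summed over the 9 genes, the level was 217 to 248 FPKM (fragments per kilobase, scaled to library size, the authors' values) in DMSO libraries and 968 to 1099 FPKM in treated libraries. Log2 fold changes below are treated over DMSO ± SE, from TMM-scaled counts, and adjusted p-values are from the same edgeR test.

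**Figure D1:**
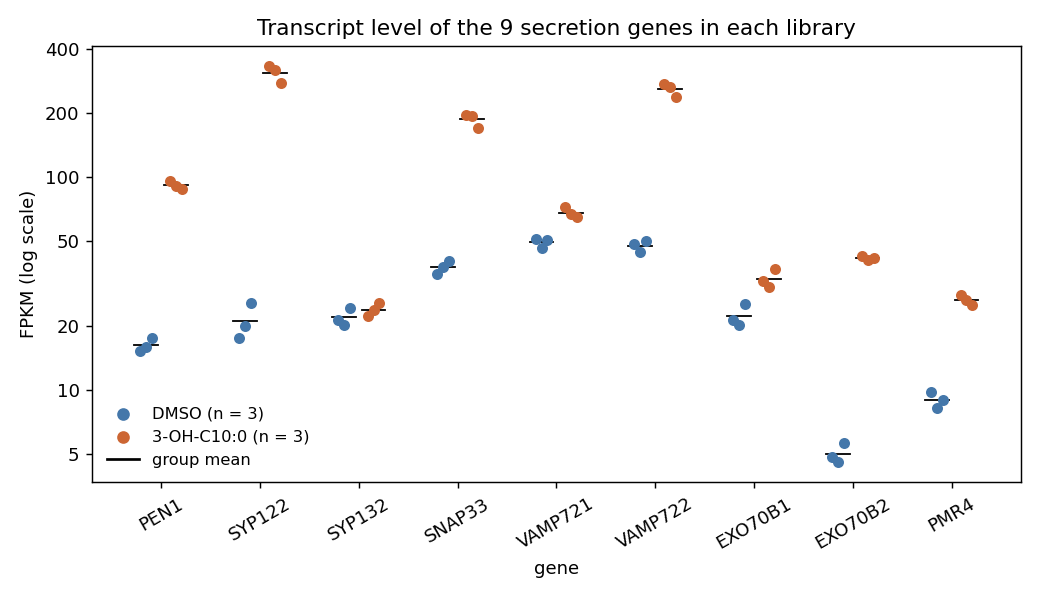
Level of each of the 9 genes in FPKM (vertical axis, log scale) in the 3 DMSO and 3 treated libraries, with points for libraries and lines for group means. SYP122 stands highest in treated libraries, between 277 and 335 FPKM, while the points of SYP132 overlap between groups.

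Libraries held 18064723 to 27131500 estimated counts, of which 3 counts in one library are 0.111 to 0.166 CPM (counts scaled to library size). Across genes, which are not independent replicates, Pearson's r was 0.989 to 0.993 between libraries of a group and 0.829 to 0.866 between groups. Shoot and root transcripts were both present, as the label seedling says: the Rubisco gene RBCS1A averaged 18659 FPKM and the root gene PYK10 743 FPKM in DMSO. Some marker genes of tissues differed between the groups, where 35.6% of all tested genes rose and 35.8% fell. The summed level of 3 leaf markers was 18407 to 19987 CPM in DMSO and 5866 to 7965 CPM in treated libraries, with 1 of 3 lower. This sum was mostly RBCS1A, which averaged 18594 CPM in DMSO and fell. LHCB1.1 and LHCB2.1 averaged 323 and 227 CPM there and did not pass (edgeR adjusted p = 0.127 and 0.524). The sum of 5 root markers was 1278 to 1375 and 623 to 900.2 CPM, with 4 of 5 lower. It was mostly PYK10, which averaged 1303 CPM in DMSO. That of 3 guard cell markers was 23.5 to 24.0 and 15.7 to 18.2 CPM, with 1 of 3 lower. The 3 vascular markers summed to 196 to 200.03 CPM and 293 to 326 CPM (SUC2 rose, IRX3 and IRX5 fell), and all 3 markers of dividing cells fell (48.6 to 55.5 and 30.7 to 36.0 CPM). No marker in these lists was at 0 in all libraries. The part of these markers in the results was not tested, and in whole seedlings fewer cells of a type and less RNA per cell cannot be told apart.

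Among the syntaxins, which sit in the plasma membrane and receive the vesicle, SYP122 rose most. SYP122, the close relative of PEN1 with which it shares immune and growth functions, stood at 17.5, 19.9 and 25.5 FPKM in DMSO libraries and at 335, 319 and 277 FPKM in treated libraries. Every treated library was more than 10 times above every DMSO library, and the log2 fold change was 3.97 ± 0.151 (adjusted p = 5.2e-09), higher than that of 97.6% of tested genes. PEN1, the syntaxin whose loss lets non-adapted powdery mildew enter epidermal cells, stood at 15.2, 15.8 and 17.5 FPKM in DMSO and at 96.1, 90.7 and 87.8 FPKM in treated libraries. The groups were far apart and each was tight (2.61 ± 0.0892, adjusted p = 2.2e-09). SYP132, a syntaxin of general secretion needed for growth, stood at 21.3, 20.1 and 24.2 FPKM in DMSO and at 22.1, 23.7 and 25.4 FPKM in treated libraries. Its groups overlapped, and it did not pass (0.20 ± 0.0924, adjusted p = 0.0689). This call lay at the edge of the threshold: the adjusted p was 0.0427 without DMSO replicate 3 and ran from 0.0427 to 0.281 over 13 alternatives.

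In DMSO seedlings the most expressed syntaxins averaged between 16.2 and 24.0 FPKM, and in treated seedlings they spread out. The order in DMSO was KNOLLE (SYP111, the syntaxin of the cell plate) at 24.0 ± 2.45, SYP132 at 21.9 ± 2.11, SYP122 at 20.9 ± 4.08 and PEN1 at 16.2 ± 1.20 FPKM (SD, n = 3). The ranges of neighbours in this order overlapped, but PEN1 lay below SYP132 in each DMSO library. In treated seedlings SYP122 at 310.1 ± 30.1 FPKM stood first, PEN1 followed at 91.5 ± 4.24, SYP132 at 23.7 ± 1.68 and KNOLLE at 12.5 ± 0.214, and each gap exceeded the spread. As a share of the summed FPKM of the 9 syntaxins of the SYP1 group, SYP122 went from 24.1% ± 2.84 to 70.3% ± 1.78. The share of PEN1 was 18.8% ± 0.666 and 20.8% ± 0.769, that of SYP132 25.3% ± 0.453 and 5.43% ± 0.789, and that of KNOLLE 27.8% ± 2.84 and 2.85% ± 0.207. KNOLLE fell (-0.86 ± 0.0922, adjusted p = 1.1e-05), beside the fall of the 3 markers of dividing cells given above. SYP112 (-0.21, adjusted p = 0.492) and SYP123, a root hair syntaxin (-0.58, adjusted p = 0.135), did not pass. SYP124, SYP125 and SYP131, known from pollen, had 4, 4 and 5 counts in all DMSO libraries together and 3, 9 and 0 in the treated ones, and were not tested.

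The 250 bases before the annotated start of the 3 syntaxin genes are shown because their levels lay much closer together in DMSO than in treated libraries. Sequences are from the RefSeq TAIR10.1 assembly, 5′ to 3′ on the gene's strand, and capitals mark the letters TTGAC, the core of the W-box to which WRKY factors bind, on either strand (GTCAA on the other). They lie at chr3:19427231-19427480 (SYP122, minus strand), chr3:3731252-3731501 (PEN1, minus strand) and chr5:2587910-2588159 (SYP132, plus strand).
SYP122: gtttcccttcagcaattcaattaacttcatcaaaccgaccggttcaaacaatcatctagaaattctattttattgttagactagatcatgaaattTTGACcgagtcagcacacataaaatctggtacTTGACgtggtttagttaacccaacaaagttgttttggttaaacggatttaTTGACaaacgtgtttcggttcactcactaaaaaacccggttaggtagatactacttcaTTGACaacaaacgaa
PEN1: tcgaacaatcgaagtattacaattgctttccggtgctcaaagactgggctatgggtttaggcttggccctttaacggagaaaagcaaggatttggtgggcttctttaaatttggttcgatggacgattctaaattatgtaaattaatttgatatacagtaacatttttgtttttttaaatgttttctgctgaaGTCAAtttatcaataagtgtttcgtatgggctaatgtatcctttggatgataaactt
SYP132: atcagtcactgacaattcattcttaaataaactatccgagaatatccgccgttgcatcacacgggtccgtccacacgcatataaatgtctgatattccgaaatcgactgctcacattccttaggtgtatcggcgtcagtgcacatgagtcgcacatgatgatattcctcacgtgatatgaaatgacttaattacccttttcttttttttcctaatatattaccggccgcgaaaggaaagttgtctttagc
The SYP122 window holds the core 4 times, with first bases 15, 73, 123 and 155 bases before the start. Of 27443 such windows of protein-coding genes, 44.9% hold the core at least once and 0.72% at least 4 times. The PEN1 window holds it once and the SYP132 window not at all. One of the 4 cores of SYP122 also reads TGACG, the TGA factor core, found in 18.6% of windows, and SYP132 has a G-box (CACGTG, 6.5% of windows) and a TGACG. A match of letters is a description and not a site, and its absence concerns this window only.

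SNAP33, the SNAP25-like partner that supplies a pair of helices to the complex with PEN1, rose with it. It stood at 35.1, 37.8 and 40.2 FPKM in DMSO and at 195, 195 and 171 FPKM in treated libraries. No treated library came near the DMSO range, and the log2 fold change was 2.40 ± 0.0968 (adjusted p = 6.4e-09). SNAP33 is overlapped on the opposite strand by AT5G61220 and by AT5G08990, a gene for a long non-coding RNA. Whether counting used strand is not stated. AT5G08990 is not among the loci with counts, so its level could not be checked. AT5G61220 was low (5.65 to 8.52 CPM, where SNAP33 had 49.6 to 299 CPM) and fell (-0.37 ± 0.133, adjusted p = 0.0283). SNAP29 had between 0.06 and 0.19 FPKM in each DMSO library and was not tested, and SNAP30 had no count in any library.

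The other SNAREs that can take the Qb and Qc positions moved in both directions. Of these 8 genes besides SNAP33, 4 were tested, of which 1 rose, 2 fell and 1 did not pass, with a median log2 fold change of -0.11. Both directions were also common among all tested genes (35.6% rose and 35.8% fell). SYP71, a Qc-SNARE of the plasma membrane and endoplasmic reticulum, rose from 56.7 ± 0.457 to 89.9 ± 3.79 FPKM (0.75, adjusted p = 5.4e-06). NPSN12 (-0.49, adjusted p = 0.00693) and NPSN11, a partner of KNOLLE in cytokinesis (-0.30, adjusted p = 0.0493), fell, and NPSN13 (0.08, adjusted p = 0.439) did not pass. The count of 2 that fell was 1 without any single library other than DMSO replicate 3. SNAP33 made up 26.9% ± 1.55 of the FPKM of itself and these 8 genes in DMSO and 58.9% ± 1.59 in treated seedlings.

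Among the vesicle SNAREs, VAMP722 rose far more than VAMP721. Both are R-SNAREs that work interchangeably with PEN1 and SNAP33, and plants that lack both do not survive. VAMP721 stood at 51.1, 46.5 and 50.7 FPKM in DMSO and at 72.7, 67.1 and 64.7 FPKM in treated libraries. All treated values were above the DMSO values, by a modest margin (0.55 ± 0.0794, adjusted p = 1.0e-04). VAMP722 stood at 48.6, 44.3 and 50.02 FPKM in DMSO and at 275, 265 and 239 FPKM in treated libraries. In DMSO its range overlapped that of VAMP721, and in treated libraries it stood well above it (2.53 ± 0.0943, adjusted p = 3.7e-09). Its share of the FPKM of the 7 genes VAMP721 to VAMP727 was 30.7% to 33.1% in DMSO libraries and 61.9% to 63.02% in treated libraries, while the share of VAMP721 was 32.2% to 34.2% and 15.95% to 16.8%.

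Both genes have a neighbour of the same family. VAMP723 lies 10 bases from VAMP722 on chromosome 2, with 90.5% identical coding sequence, and rose with it from 2.73 ± 0.295 to 15.7 ± 0.581 FPKM (2.61, adjusted p = 1.3e-08). VAMP726 lies 881 bases from VAMP721 on chromosome 1 and fell from 2.48 ± 0.490 to 0.667 ± 0.220 FPKM (-1.83, adjusted p = 4.9e-04). Of the distinct 50-base stretches in VAMP722 transcripts, 6.09% also occur in another gene (74 of 90 in VAMP723), so the split of reads between these neighbours is uncertain. For VAMP721 the share was 0.874%, for SNAP33 0.575%, and for PEN1, SYP122, SYP132, EXO70B1, EXO70B2 and PMR4 it was 0. For the neighbour VAMP726 it was 18.3% (256 of 1396 stretches, in AT1G04770), so its read assignment is uncertain too. VAMP726 had 100 counts in the DMSO libraries together and 28 in the treated ones. Of the 11 genes of the VAMP7 family 10 were tested, of which 6 rose and 2 fell, with a median of 0.77. Across all tested genes 35.6% rose and 35.8% fell. VAMP727, of late endosomes and the vacuole (1.17, adjusted p = 3.4e-07), VAMP714 (0.996, adjusted p = 1.5e-06) and the low VAMP725 (2.52, adjusted p = 1.2e-04) rose, and VAMP713 fell (-0.34, adjusted p = 0.0343). The vacuolar VAMP711, with 139 ± 6.38 and 131 ± 13.6 FPKM, and VAMP724 did not pass (adjusted p = 0.974 and 0.819). The count of 2 that fell was 1 without DMSO replicate 1, treated replicate 1 or treated replicate 2.

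Regulators of the syntaxins were split as well, as both directions were common among all tested genes. SEC1B, a SEC1/MUNC18 protein, rose from 1.57, 1.76 and 1.66 FPKM in DMSO to 31.5, 33.9 and 30.9 FPKM in treated libraries (4.35 ± 0.0956, adjusted p = 1.6e-10). It was the largest log2 fold change of the 3 proteins of that kind. KEULE (SEC11), which acts with KNOLLE at the cell plate and also binds PEN1, rose from 22.5 ± 1.36 to 52.4 ± 0.519 FPKM (1.30, adjusted p = 1.3e-07), and SEC1A fell (-0.68, adjusted p = 0.00119). SEC1B thus went from 5.82% ± 0.430 to 36.8% ± 1.35 of their summed FPKM.

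EXO70B2 rose and overtook EXO70B1. EXO70B1, an exocyst subunit linked to autophagy-related transport whose loss sets off immunity through the receptor TN2, stood at 21.2, 20.2 and 25.4 FPKM in DMSO and at 32.6, 30.4 and 36.99 FPKM in treated libraries. The treated values were all higher, by less than a doubling of any DMSO value (0.67 ± 0.107, adjusted p = 2.2e-04). EXO70B2, a target of the ubiquitin ligase PUB22 in immune signalling, stood at 4.79, 4.54 and 5.60 FPKM in DMSO and at 42.6, 40.6 and 41.5 FPKM in treated libraries. It was the lowest of the 9 genes in DMSO and above EXO70B1 in each treated library (3.14 ± 0.0949, adjusted p = 9.2e-10). The promoter windows of this pair are shown because its genes, too, rose by different amounts. That of EXO70B1 (chr5:23623544-23623793) holds the W-box core 2 times and that of EXO70B2 (chr1:2152542-2152791) not at all. Both lie on the minus strand, and capitals again mark the W-box core.
EXO70B1: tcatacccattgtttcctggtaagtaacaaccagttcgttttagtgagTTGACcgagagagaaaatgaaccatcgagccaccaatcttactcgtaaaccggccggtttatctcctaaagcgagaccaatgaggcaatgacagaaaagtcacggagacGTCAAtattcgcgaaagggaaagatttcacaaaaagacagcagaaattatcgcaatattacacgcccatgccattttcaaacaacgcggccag
EXO70B2: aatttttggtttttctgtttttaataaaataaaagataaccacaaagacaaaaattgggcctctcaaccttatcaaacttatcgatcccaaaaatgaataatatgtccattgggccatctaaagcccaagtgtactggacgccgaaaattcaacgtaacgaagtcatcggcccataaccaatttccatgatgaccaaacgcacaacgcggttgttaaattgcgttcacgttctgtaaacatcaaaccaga
Both windows hold 1 match to CGCGT, the core read by CAMTA factors, which 6.9% of windows hold on either strand, and that of EXO70B1 also 1 TGACG. The GCC box (GCCGCC, 1.9% of windows) is in none of the 9 windows. Of the other members, the VAMP722 window holds 1 W-box core, and those of SNAP33, VAMP721 and PMR4 none. The VAMP721 window has 206 bases in exons of another gene.

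EXO70B2 was one of several EXO70 genes that rose. Of the 23 genes of the family 19 were tested, of which 14 rose and 5 did not pass, with a median of 1.01. For all tested genes the shares were 35.6% that rose and 35.8% that fell. With all 6 libraries, none fell in edgeR with TMM scaling and no block or in DESeq2. At an unadjusted p under 0.05, 1 fell in that edgeR fit (EXO70C2, adjusted p = 0.0553). Among the alternatives, 1 fell in edgeR with total-count scaling or a replicate block, with limma on FPKM and without treated replicate 3. EXO70E2, which marks a double-membraned export compartment, rose from 5.55 ± 0.114 to 59.8 ± 6.14 FPKM (3.51, adjusted p = 7.0e-10), EXO70H1, which like EXO70B2 is linked to defence, from 1.69 ± 0.259 to 18.7 ± 1.13 FPKM (3.55, adjusted p = 2.5e-09), EXO70E1 from 5.23 ± 0.354 to 21.7 ± 1.14 FPKM and EXO70F1 from 16.5 ± 0.659 to 41.1 ± 0.688 FPKM. The largest log2 fold changes, named after their values were seen, were those of EXO70H4, known for callose-rich trichome walls (5.24 ± 0.341), and EXO70H2 (4.56 ± 0.196). EXO70H2 stood at 3.98 ± 0.429 FPKM in DMSO and at 96.3, 105 and 64.7 FPKM in treated libraries, the highest of the family there. EXO70A1, the version of general growth, rose from 22.97 ± 1.36 to 43.6 ± 1.23 FPKM (1.01). As a share of the family's FPKM, EXO70B1 went from 16.4% ± 1.24 to 7.45% ± 1.24 and EXO70B2 from 3.67% ± 0.234 to 9.25% ± 0.626.

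Most of the core exocyst subunits, which work with the EXO70 versions, rose as well. Of 12 core exocyst genes 11 were tested, of which 8 rose, 1 fell and 2 did not pass, with a median of 0.83. Of all tested genes, 35.6% rose and 35.8% fell. The count of 8 that rose was 7 without any single library other than treated replicate 1. SEC8 rose from 17.4 ± 0.552 to 37.2 ± 2.00 FPKM (1.18, adjusted p = 2.3e-07), SEC15B from 11.9 ± 0.692 to 22.9 ± 0.638 (1.03), SEC3A from 25.8 ± 0.389 to 49.3 ± 3.03 (1.02) and SEC6 from 20.1 ± 0.328 to 34.9 ± 2.32 (0.88). SEC5A (0.16, adjusted p = 0.0689) and SEC10A (0.08, adjusted p = 0.371) did not pass, EXO84C fell (-0.31, adjusted p = 0.00917), and EXO84A was not tested. The summed FPKM of the core was 164 to 171 in DMSO and 251 to 262 in treated libraries, and that of the EXO70 family 129.6 to 142 and 417 to 467.

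The uneven response of related genes can be seen as a ratio within each library. Over the 5 ratios tested, the treated and DMSO libraries did not overlap. The exact permutation test gave a two-sided p of 0.1 for each (0.1 after Benjamini-Hochberg adjustment over the 5), the smallest that 3 against 3 libraries allow. How often ratios of other gene pairs separate the groups was not computed. The ratios among the syntaxins are built from the same 3 genes, so they are not independent. EXO70B2 over EXO70B1 was 0.226, 0.225 and 0.221 in DMSO and 1.31, 1.33 and 1.12 in treated libraries, a shift of 2.48 ± 0.0800 in log2. VAMP722 over VAMP721 was 0.951, 0.952 and 0.987 in DMSO and 3.78, 3.95 and 3.69 in treated libraries, a shift of 1.98 ± 0.0341. Each pair thus went from near or below equality to an excess of one gene in all treated libraries. PEN1 over SYP122 went from 0.869, 0.798 and 0.689 to 0.287, 0.284 and 0.318, a shift of -1.40 ± 0.110. PEN1 over SYP132 shifted by 2.38 ± 0.106 and SYP122 over SYP132 by 3.78 ± 0.176, the latter to between 10.9 and 15.2 in treated libraries. The coding sequences compared were 89.2% identical for VAMP721 and VAMP722, 67.0% for EXO70B1 and EXO70B2, 68.4% for PEN1 and SYP122, 64.1% for PEN1 and SYP132 and 62.3% for SYP122 and SYP132.

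**Figure D2:**
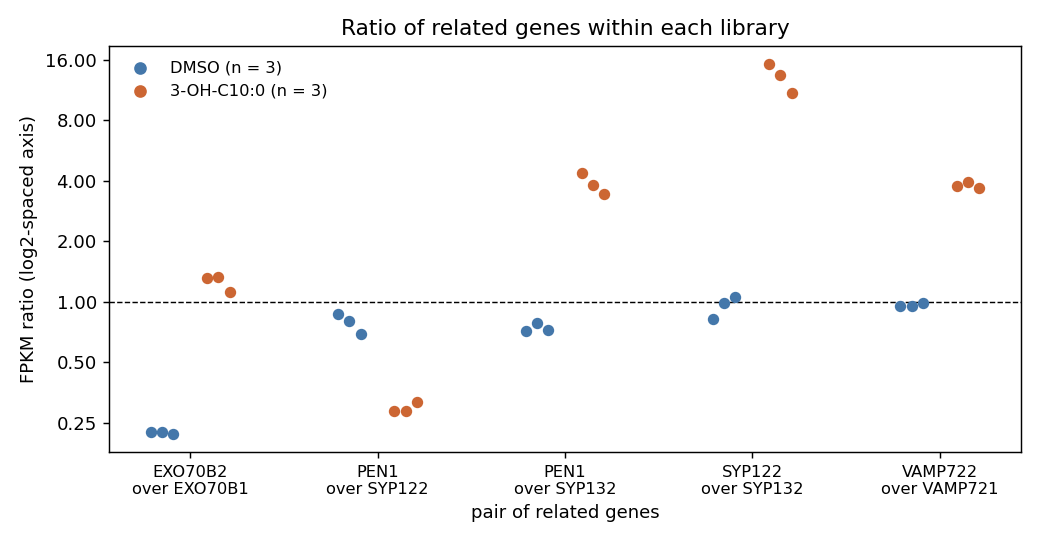
FPKM ratio of related genes (vertical axis, log2-spaced, dashed line at 1) in each DMSO and treated library. The ratio of VAMP722 to VAMP721 lies between 0.951 and 0.987 in DMSO and between 3.69 and 3.95 in treated libraries, and no pair overlaps between groups.

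PMR4, the callose synthase of papillae and wounds, rose as well. It stood at 9.76, 8.23 and 8.92 FPKM in DMSO and at 27.8, 26.5 and 25.1 FPKM in treated libraries. The ranges were well apart (1.65 ± 0.0865, adjusted p = 4.6e-08). The 12 callose synthases moved in both directions: 5 rose, 3 fell and 4 did not pass, with a median of 0.01. Among all tested genes 35.6% rose and 35.8% fell, with a median of -0.04. GSL10, essential for pollen (19.5 ± 1.14 to 44.8 ± 2.55 FPKM, 1.28, adjusted p = 2.7e-07), GSL8, of the cell plate (15.1 ± 0.748 to 28.8 ± 0.939 FPKM, 1.02), GSL11 (0.60) and the low GSL9 (1.99, from 0.107 to 0.410 FPKM) rose. GSL12 (CALS3), a synthase of callose at plasmodesmata, fell from 27.1 ± 2.57 to 14.6 ± 1.18 FPKM (-0.81, adjusted p = 2.1e-05), and GSL1 (-0.20, adjusted p = 0.0412) and the pollen synthase GSL2 (-1.89, adjusted p = 8.2e-04) fell. GSL3, GSL4, GSL6 and the phloem synthase GSL7 did not pass (-0.13, -0.28, -0.003 and 0.02). The count of 3 that fell was 2 without DMSO replicate 1, DMSO replicate 2, treated replicate 1 or treated replicate 2, and 5 without treated replicate 3. PMR4 went from 6.94% ± 0.396 to 15.6% ± 1.27 of the summed FPKM of the family and GSL12 from 21.0% ± 1.44 to 8.58% ± 0.455.

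**Figure D3:**
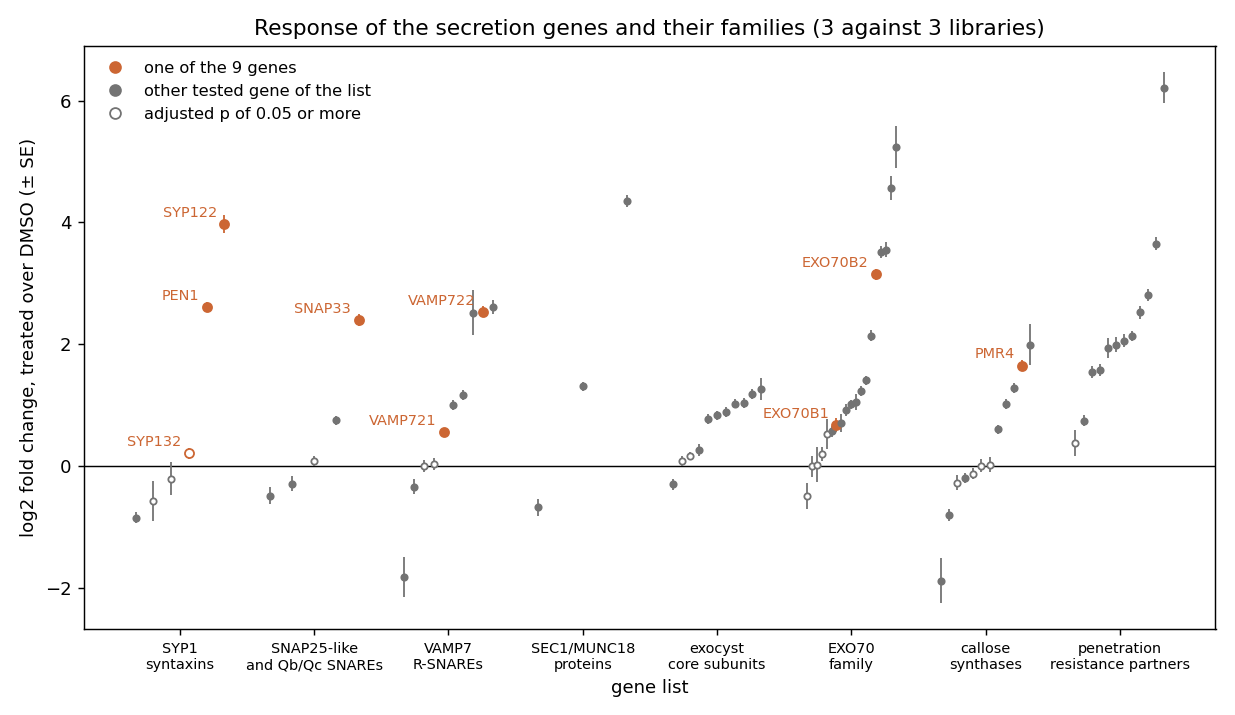
Log2 fold change of treated over DMSO with SE (vertical axis) for tested genes of 8 lists, with the 9 genes coloured and labelled and open symbols for an adjusted p of 0.05 or more. SYP122 (3.97) and PEN1 (2.61) stand above the other tested syntaxins of their list, whereas EXO70B2 (3.14) lies below EXO70H4 (5.24) and EXO70H2 (4.56).

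**Figure D4:**
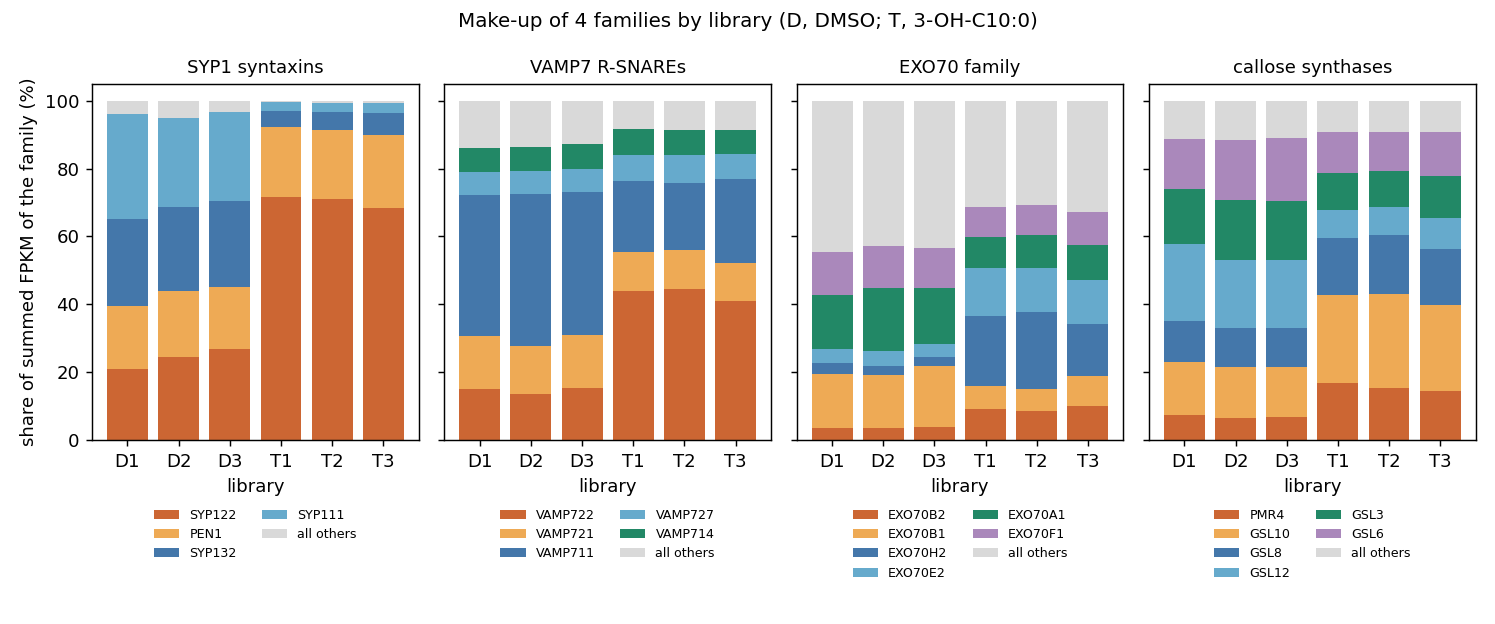
Share of summed FPKM (vertical axis, %) held by named genes of 4 families in DMSO libraries (D1 to D3) and treated libraries (T1 to T3). SYP122 goes from 24.1% to 70.3% of the SYP1 syntaxins and VAMP722 from 14.6% to 43.2% of the VAMP7 family.

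Genes known to work beside this machinery rose almost throughout. Of 13 such genes 12 were tested, of which 11 rose and PUB18 did not pass, with a median of 2.02 and every fitted change positive. Among all tested genes 35.6% rose. The list was drawn up with earlier results of these data known, so its count is a description only. PEN2, a myrosinase, rose from 103 ± 5.70 to 282 ± 13.7 FPKM and PEN3, a plasma membrane transporter that gathers at papillae, from 168 ± 12.1 to 631 ± 8.46 FPKM, and PCS1 (PEN4), the phytochelatin synthase, from 21.1 ± 1.81 to 87.4 ± 2.93 FPKM. The MLO genes, whose products powdery mildew needs for entry, rose: MLO2 from 67.8 ± 1.53 to 266 ± 30.9 FPKM, MLO6 from 7.49 ± 0.495 to 88.3 ± 10.5 FPKM and MLO12 from 8.38 ± 2.38 to 589 ± 86.5 FPKM. PUB22 rose from 13.5 ± 0.913 to 89.1 ± 5.72 FPKM (2.80 ± 0.0944, adjusted p = 2.0e-09), while PUB18, a ligase of EXO70B1, did not pass (0.37, adjusted p = 0.15). RIN4, an immune regulator that binds EXO70B1 (1.58), PDLP5, which promotes callose at plasmodesmata (2.52), RABA4C, a GTPase that binds PMR4 (1.94), and MIN7, a regulator of vesicle traffic (0.74), rose. TN2 had 1 count in DMSO and 1 in treated libraries and was not tested.

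By a rule on likeness, the genes nearest to 3 of the members were found among 18793 others with a mean of at least 20 counts, by the root mean square difference in log2 CPM relative to the DMSO mean over 6 libraries. Nearest to EXO70B2 were the salicylic acid receptor gene NPR3 (0.0586), the glucosyltransferase gene UGT73B5 (0.0858) and the co-receptor gene SOBIR1 (0.0861). Nearest to PEN1 were AT3G17410 (0.0528) and AT1G23150 with its overlapping CPuORF29 (0.0601 each), and nearest to SNAP33 were AT1G10410 (0.0443), AT2G37110 (0.0545) and AT3G28450 (0.0657). With this many changed genes, near matches of change relative to DMSO across libraries are a description only.

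Positions are those of TAIR10.1, with exon blocks merged over transcripts, and the values above are for whole genes. On chromosome 3, both on the minus strand, are PEN1 (AT3G11820, bases 3729305 to 3731251, 2 blocks) and SYP122 (AT3G52400, bases 19425632 to 19427230, 2 blocks). Chromosome 5 holds SYP132 (AT5G08080, bases 2588160 to 2591406, plus strand, 13 blocks), EXO70B1 (AT5G58430, bases 23621152 to 23623543, minus strand, 1 block) and SNAP33 (AT5G61210, bases 24623248 to 24625631, plus strand, 5 blocks). Chromosome 1 holds VAMP721 (AT1G04750, bases 1331466 to 1333651, 4 blocks) and EXO70B2 (AT1G07000, bases 2150158 to 2152541, 2 blocks), both on the minus strand. VAMP722 (AT2G33120) occupies bases 14043400 to 14045695 of chromosome 2, minus strand, in 5 blocks, and PMR4 (AT4G03550) bases 1573266 to 1579820 of chromosome 4, plus strand, in 5 blocks.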

How the data were processed

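RNA was extracted with TRIzol and sequenced on a HiSeq2500, per the labels. The submitters' processing notes name the build TAIR10, RSEM, StringTie 1.3.1, HISAT2 2.2.4, Bowtie2 2.2.8 and fastp 0.18.0. Estimated counts per locus were deposited without normalisation, per the file headers; 3.618% were not whole to within 1e-06, and all were rounded here. The deposited FPKM values are the authors' own and were taken as they stand.

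Counts were fitted with edgeR 4.0.16 (R 4.3.3): filterByExpr with a minimum count of 10, which kept 19768 genes, TMM scaling, robust quasi-likelihood F test, two-sided, without a replicate block. The SE is the log2 fold change over the square root of F. The common biological coefficient of variation was 11.3%. DESeq2 1.42.0, limma 3.58.1 on log2(FPKM + 1) and log2(FPKM + 0.1), other scalings, no filter, a replicate block and each library left out were the alternatives. Ratios used FPKM without a pseudocount. Motifs and shared stretches were searched in TAIR10.1; the deposited tables hold no coordinates. Floors cover counting error only.

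The members and lists were chosen with earlier results of these data known. The 9 genes are always named; from each list the 4 other genes with the smallest p past the threshold and, in lists of at most 12, genes that did not pass or fell. Others named (PEN2, PEN3, MLO2, MLO12, RIN4, RABA4C, MIN7, EXO70A1, EXO70H2, EXO70H4, GSL9, PUB18, tissue markers, untested genes and the counted gene overlapping SNAP33) were chosen after their values were seen.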

Additional observations from a re-analysis of the deposited data

How the results depend on the processing

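All 9 genes kept their direction under the 13 alternatives, and the 8 that rose stayed past the threshold in each, with highest adjusted p-values of 0.00146 (EXO70B1) and 8.4e-04 (VAMP721). Log2 fold changes ran from 3.84 to 4.12 for SYP122, from 2.43 to 2.65 for PEN1, from 2.84 to 3.22 for EXO70B2 and from 0.56 to 0.76 for EXO70B1. SYP132 passed with DESeq2 size factors (0.23, adjusted p = 0.0445), with a replicate block (0.20, adjusted p = 0.0436) and without DMSO replicate 3. The 5 ratios kept their sign in each alternative, including the replicate block over pairs, whose smallest possible p is 0.25. Same-numbered libraries did not deviate together (r of 0.0414, -0.0099 and 0.136), so the numbers are not taken as pairs; with the block 7063 genes rose and 7087 fell. Of the SNAP25-like, Qb and Qc SNAREs, 1 fell with DESeq2 size factors, the DESeq2 Wald test, no filter or the replicate block, and 1 to 2 with a library left out. Of the VAMP7 family 1 fell with the Wald test, and 1 to 2 with a library left out. Of the exocyst core 2 fell with the Wald test or without the filter. In that list 7 rose with total-count scaling or limma at either pseudocount, 9 with DESeq2 size factors, and 7 to 8 with a library left out. Of the EXO70 family 1 fell with total-count scaling, the replicate block or limma at either pseudocount, and 0 to 1 with a library left out. Of the callose synthases 2 fell with DESeq2 size factors, the Wald test, no filter, the replicate block or limma at a pseudocount of 1, 4 with total-count scaling, and 2 to 5 with a library left out. The cause was not tested. Depth limits SYP124, SYP125, SYP131 and TN2, which had under 10 counts in each group.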
